A study of Homo sapiens with 4 samples.

Results

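The genes described here are 9 members of the activin and BMP branches of the TGF-beta family, taken by their symbols from a table of 58219 genes. They are the activin subunits INHBA and INHBB, the ligand BMP4, the type I receptors ACVR1 and BMPR1A, the type II receptors ACVR2A and BMPR2, and the secreted antagonists FST and GREM1. A mean of at least 10 normalized reads over all libraries was reached by 8 of them, and INHBB did not reach it. Their RNA was measured in WI-38 cells, an established line of normal fibroblasts from human embryonic lung, after transfection with an siRNA against exon 4 of G3BP1 (siG3BP1) or a scrambled siRNA (siCTL). G3BP1 is an RNA-binding protein of stress granules. After transfection the cells of both groups were irradiated with 10 Gy, which makes them senescent, and they were harvested on day 8, so the controls are senescent cells as well. Each group has 2 total RNA libraries, A and B. Whether these came from separate cultures is not in the labels, so the spread between libraries may be technical. In the main test (limma on the deposited values) the standard errors, p-values and intervals take their spread from the trend over all genes. A gene's own spread between its libraries does not enter them. The comparison asks how the loss of G3BP1 changed the RNA of senescent fibroblasts.

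Activins and BMPs are secreted dimers. They bring together type II and type I receptor kinases. The type II receptor phosphorylates the type I receptor, which in turn phosphorylates SMAD proteins that move to the nucleus with SMAD4. Activins signal mainly through SMAD2 and SMAD3, and BMPs through SMAD1, SMAD5 and SMAD9. Antagonists such as follistatin (FST) and gremlin 1 (GREM1) trap the ligands outside the cell. In fibroblasts activin A, a dimer of the INHBA product, is known as a secreted factor of wound healing and fibrosis.

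The strands listed for the siRNAs are shown first, because the whole comparison rests on them. Capitals mark the longest run of bases complementary to a G3BP1 transcript in Gencode release 44. For siG3BP1 this is the whole strand of 21 bases, complementary to 37 of 78 annotated G3BP1 transcripts, and for the control it is 8 bases.
siG3BP1: UCAACAUGGCGAAUCUUGGTG
control siRNA: aagcCAAUUCAUcagcaaugg

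G3BP1 RNA was low in both libraries labelled siG3BP1. The gene (chromosome 5, 151771045 to 151812785, GRCh38) had 2675 (A) and 2522 (B) normalized reads in the siCTL libraries and 201 (A) and 271 (B) in the siG3BP1 libraries. G3BP1 fell by 3.47 on the log2 scale (SE, the standard error, 0.34; limma adjusted p = 9.10e-21 by Benjamini-Hochberg).

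The start regions of 3 members are shown because these genes differed in how far they moved. INHBA and BMPR2 were lower in siG3BP1, and FST did not pass the test. Each RefSeq window (GRCh38.p14) runs from 250 bases before to 50 bases after an annotated start, and is written 5′ to 3′ on the gene's strand. The INHBA window is chr7:41703041-41703340 on the minus strand and lies inside the longer gene span of the deposited table. The BMPR2 window is chr2:202376077-202376376 and the FST window is chr5:53480379-53480678, both on the plus strand. The BMPR2 window lies wholly before the gene span of the deposited table, which starts at 202376936. Capitals mark motif matches.
INHBA: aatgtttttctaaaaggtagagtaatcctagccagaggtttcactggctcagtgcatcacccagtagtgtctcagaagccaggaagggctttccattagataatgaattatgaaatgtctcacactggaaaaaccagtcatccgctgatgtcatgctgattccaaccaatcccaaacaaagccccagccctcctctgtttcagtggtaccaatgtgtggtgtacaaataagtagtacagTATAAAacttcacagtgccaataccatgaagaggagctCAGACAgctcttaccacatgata
BMPR2: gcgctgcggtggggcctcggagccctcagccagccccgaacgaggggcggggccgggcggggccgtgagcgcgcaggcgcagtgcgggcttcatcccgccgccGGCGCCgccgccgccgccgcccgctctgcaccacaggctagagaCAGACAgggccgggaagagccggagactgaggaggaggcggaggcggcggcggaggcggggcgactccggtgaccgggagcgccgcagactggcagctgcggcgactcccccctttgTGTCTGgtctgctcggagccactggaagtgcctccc
FST: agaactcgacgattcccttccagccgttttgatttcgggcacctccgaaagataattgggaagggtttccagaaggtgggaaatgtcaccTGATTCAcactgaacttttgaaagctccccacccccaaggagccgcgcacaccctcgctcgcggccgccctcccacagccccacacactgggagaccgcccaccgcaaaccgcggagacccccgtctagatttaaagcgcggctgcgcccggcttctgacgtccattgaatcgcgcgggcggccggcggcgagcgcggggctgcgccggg

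The motifs were TGANTCA (the AP-1 site), GGCGCC (a GC-rich SMAD site), GTCTAGAC (a palindromic SMAD site), CAGACA (a SMAD site) and TATAAA (the TATA box). All were searched on both strands except TATAAA, which was searched on the gene's strand. GTCTAGAC and CAGACA share the letters AGAC. RefSeq gave 14 windows for the 9 members. TATAAA was in the INHBA window only, 11 bases before the start, and in 7.33% of all 35116 windows of this length. TGANTCA was in the FST window and in 1 of the ACVR1 windows (2 of 14, against 7.71% of all windows). CAGACA was in 6 of 14 member windows, including those of INHBA and BMPR2 (16.88% of all windows). GGCGCC was in 5 of 14, including that of BMPR2 (19.22% of all windows). GTCTAGAC was in 0 of 14 (0.2% of all windows). The GC content of the window was 43.3% for INHBA, 76.7% for BMPR2 and 63.7% for FST, against a median of 58.7% over all windows. A match is a stretch of letters and not a measured binding site.

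Levels are given as normalized reads, meaning the reads of a gene over the size factor of the library, as deposited. The recovered reads in genes numbered 16944404 to 22745000 per library. Of the fibroblast markers listed for this check, 10 of 10 were measured above the filter, with a summed level of 265989 to 405753 normalized reads in siCTL and 385046 to 407903 in siG3BP1. These sums are carried by COL1A1, COL1A2 and VIM, of which VIM rose. LUM, PDGFRA, DCN and COL3A1 fell, with log2 fold changes of -2.86, -1.65, -1.06 and -0.85 (limma adjusted p at most 0.0208). None of 8 epithelial markers passed it, and 4 of them (SFTPC, KRT5, NKX2-1, KRT14) were at 0 in all libraries. Among 7 endothelial markers 2 passed the filter and CDH5, CLDN5 and EMCN were at 0. Their summed level was 3018 to 4480 in siCTL and 1007 to 1471 in siG3BP1, nearly all of it TEK, while VWF rose with a log2 fold change of 0.94 (limma adjusted p = 0.0487). Of 8 immune markers 2 passed the filter, and the summed level was 76.6 to 84.6 in siCTL and 109 to 111 in siG3BP1. Of 6 muscle markers 4 passed (8933 to 9334 in siCTL, 11111 to 21893 in siG3BP1), and MYOD1 was at 0. The part of these markers in the changes of the members was not tested. In bulk RNA, fewer cells of a type and less RNA per cell cannot be told apart.

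Most of the measured members were lower in siG3BP1. Of the 8 tested, 5 fell (INHBA, ACVR2A, BMPR1A, BMPR2 and GREM1), 0 rose (0 also at an unadjusted p under 0.05 and with edgeR or DESeq2), and ACVR1, BMP4 and FST did not pass the test. Changes of this kind were common in these libraries. Among 13422 tested genes 30.5% were called lower (4095 genes) and 25.9% higher (3481 genes). Lower calls were more frequent among genes with an exonic GC content like that of the 5 lower members. By deciles of GC content, 1105 of 1335 genes were called lower in that of ACVR2A. In that of BMPR1A, BMPR2 and GREM1 1033 of 1335 were, and in that of INHBA 859 of 1335. Fewer were in the deciles of ACVR1 (629 of 1335), FST (285 of 1336) and BMP4 (36 of 1335). When every library was shifted to the same median, 3108 genes were lower and 4629 higher, the median over all genes was 0.29 and that of the members -0.81. The median log2 fold change was -1.07 over the 8 members and 0.04 over all tested genes. In the same 5 members both siG3BP1 libraries lay below both siCTL libraries, which held for 40.5% of all tested genes, and in 0 members both lay above, which held for 42.8%. The libraries also differed from each other along the exonic GC content of the genes. After each library was corrected for that trend, 0 of 8 members passed the test, and over all genes 0.00749% were called lower (1 gene of 13350, G3BP1) and 0% higher. At an unadjusted p under 0.05 there were 0 members and 28.5% of all genes. With prior degrees of freedom of 4.17 this fit called almost nothing, so a member that misses its adjusted threshold is not shown to be unchanged. The 8 members then had a median log2 fold change of -0.27. The share of all genes whose groups did not overlap after this correction was not computed.

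**Figure D1:**
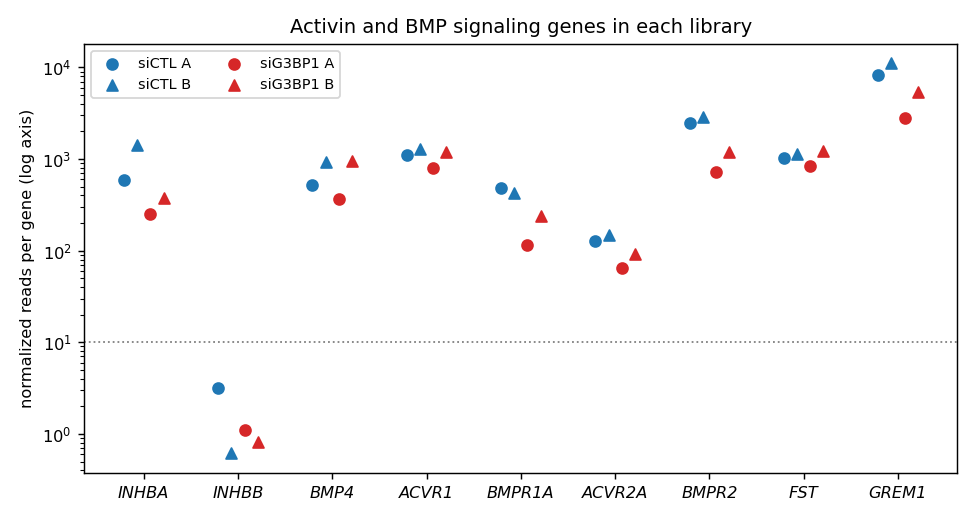
Normalized reads of each member (log axis) in the 4 libraries. Circles are libraries A, triangles libraries B, blue siCTL, red siG3BP1, and the dotted line is the filter of 10 normalized reads that INHBB alone did not reach. INHBA, BMPR1A, ACVR2A, BMPR2 and GREM1 have both red points below both blue points.

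Among the ligands, INHBA fell and BMP4 did not pass the test. INHBA encodes the beta A subunit of activin and inhibin (chromosome 7, 41667168 to 41705834). The siCTL libraries had 584 (A) and 1435 (B) normalized reads of it, and the siG3BP1 libraries 248 (A) and 374 (B). Both siG3BP1 libraries were below both siCTL libraries, but the siCTL libraries themselves differed by 1.30 on the log2 scale, where the median gene differed by 0.18. The mean in siG3BP1 was 30.9% of that in siCTL. On the scale of log2(value + 0.5) INHBA fell by 1.58 (SE 0.34 with 2 libraries per group, limma adjusted p = 6.45e-05). After GC correction the levels were 412 (A) and 1027 (B) in siCTL and 418 (A) and 441 (B) in siG3BP1, so that siCTL A was below both siG3BP1 libraries and siCTL B stood apart. The GC-corrected log2 fold change of INHBA was -0.60 (SE 0.40, limma adjusted p = 0.358), and without siCTL B it was 0.06. INHBA-AS1, an antisense RNA that shares 3% of the INHBA exons, was at most at 1.64 normalized reads in any library.

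INHBB, the beta B subunit of activin and inhibin (chromosome 2, 120346143 to 120351808), was barely detected. Its recovered reads numbered 4 in siCTL A and 1 in each of the other libraries. A count of 0 would still allow 3 reads, so no fold is given, and the activin RNA measured here was that of INHBA.

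BMP4, a ligand that patterns many embryonic tissues including the lung (chromosome 14, 53949736 to 53958761), split by letter and not by siRNA on the deposited values. With siCTL its levels were 519.7 (A) and 937 (B) normalized reads, and with siG3BP1 366 (A) and 957 (B). The A libraries were the low ones in both groups, and the groups overlapped. The log2 fold change of BMP4 was -0.24 (SE 0.34, 95% interval -0.90 to 0.42, limma adjusted p = 0.550), and 0.02 when all libraries were shifted to the same median. BMP4 had the highest exonic GC content of the tested members, 53.4%, in a decile of genes whose median log2 fold change was 0.62. Its GC-corrected log2 fold change was -0.81 (SE 0.54, limma adjusted p = 0.359). The corrected levels were 643 (A) and 1123 (B) in siCTL and 274 (A) and 861 (B) in siG3BP1. The groups overlapped, with siG3BP1 the lower within each letter.

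Of the type I receptors, BMPR1A fell and ACVR1 did not pass the test. BMPR1A, also known as ALK3, is a main type I receptor for BMP2 and BMP4 (chromosome 10, 86756601 to 86932838). The siCTL libraries had 477 (A) and 429.6 (B) normalized reads, the siG3BP1 libraries 114 (A) and 236 (B). The siCTL libraries lay close together, and siG3BP1 A was below siG3BP1 B by 1.04 on the log2 scale. BMPR1A fell by 1.46 (SE 0.34, limma adjusted p = 2.26e-04), to 38.6% of the siCTL mean. After GC correction its log2 fold change was -0.42 (SE 0.22, limma adjusted p = 0.255), with both siG3BP1 libraries still below both siCTL libraries at 197 and 283 against 331 and 300.5.

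ACVR1, also known as ALK2, is a type I receptor of BMPs that also binds activin, and its activating mutations cause fibrodysplasia ossificans progressiva (chromosome 2, 157736444 to 157875862). Normalized reads of ACVR1 were 1103 (A) and 1294 (B) with siCTL and 788 (A) and 1192 (B) with siG3BP1. Only siG3BP1 A was below both siCTL libraries. The log2 fold change of ACVR1 was -0.30 (SE 0.34, 95% interval -0.96 to 0.36, limma adjusted p = 0.439). After GC correction it was 0.34, with siG3BP1 at 1148 and 1280, above both siCTL libraries at 868 and 1052. Correction for exonic length gave ACVR1 a log2 fold change of 0.13.

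Both type II receptors among the members fell. BMPR2, the main type II receptor of BMPs and the gene most often mutated in heritable pulmonary arterial hypertension (chromosome 2, 202376936 to 202567751), had 2477 (A) and 2840.5 (B) normalized reads with siCTL and 730.1 (A) and 1179 (B) with siG3BP1. Of the 5 members that fell it had the widest gap between the groups, 1.07 on the log2 scale from the lowest siCTL library to the highest siG3BP1 library. BMPR2 fell by 1.52 (SE 0.34, limma adjusted p = 1.15e-04), to 35.9% of the siCTL mean. After GC correction its log2 fold change was -0.33 (SE 0.15, limma adjusted p = 0.207). The corrected levels, 1659 and 1868 in siCTL against 1316 and 1486 in siG3BP1, did not overlap.

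ACVR2A, a type II receptor of activins (chromosome 2, 147844517 to 147930826), had the lowest level per length of the tested members. Its normalized reads were 127 (A) and 149 (B) with siCTL, and 64.9 (A) and 92.6 (B) with siG3BP1. The groups did not overlap. ACVR2A fell by 0.82 (SE 0.36, limma adjusted p = 0.0411). This call was the nearest to the threshold, and it was lost under quantile normalization (limma adjusted p = 0.210), median-centring (limma adjusted p = 0.134) and DESeq2 on the recovered reads (adjusted p = 0.0811). With the lowest GC content of the tested members, 37.3%, ACVR2A had a log2 fold change of 0.43 after GC correction (SE 0.19, limma adjusted p = 0.197). Its corrected levels, 83.9 and 94.0 in siCTL against 120.3 and 119.8 in siG3BP1, did not overlap, and siG3BP1 was the higher group. ORC4, a subunit of the origin recognition complex, overlaps 6.7% of the ACVR2A exons on the opposite strand. It was at 146 and 135 normalized reads in siCTL and at 52.8 and 63.9 in siG3BP1. The libraries were stranded per the study's methods.

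Of the antagonists, GREM1 fell and FST did not pass the test. GREM1, which binds BMP2, BMP4 and BMP7 (chromosome 15, 32717974 to 32745107), had the highest mean level per length of the members, with 8342 (A) and 11019 (B) normalized reads in siCTL and 2796 (A) and 5342 (B) in siG3BP1. The groups did not overlap. GREM1 fell by 1.31 (SE 0.33, limma adjusted p = 6.24e-04), to 42.0% of the siCTL mean. After GC correction its log2 fold change was -0.21 (SE 0.22, limma adjusted p = 0.553) and siG3BP1 B lay between the siCTL libraries. Correction for exonic length gave GREM1 a log2 fold change of -0.78 (limma adjusted p = 0.0617). The antisense RNA GREM1-AS1, which shares 2.5% of the GREM1 exons, was at 17.6 and 31.9 normalized reads in siCTL and at 42.9 and 17.2 in siG3BP1.

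FST encodes follistatin, which binds activin almost irreversibly (chromosome 5, 53480409 to 53487134). It had 1029 (A) and 1126 (B) normalized reads with siCTL and 844 (A) and 1222 (B) with siG3BP1. The siG3BP1 libraries lay on both sides of the siCTL libraries. The log2 fold change of FST was -0.08 (SE 0.34, 95% interval -0.74 to 0.58, limma adjusted p = 0.840), and 0.17 when all libraries were shifted to the same median. This interval still allows changes in both directions. After GC correction the log2 fold change was 0.27 (SE 0.15, limma adjusted p = 0.287). Both siG3BP1 libraries were then above both siCTL libraries, at 1074 and 1232 against 895 and 1011.

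**Figure D2:**
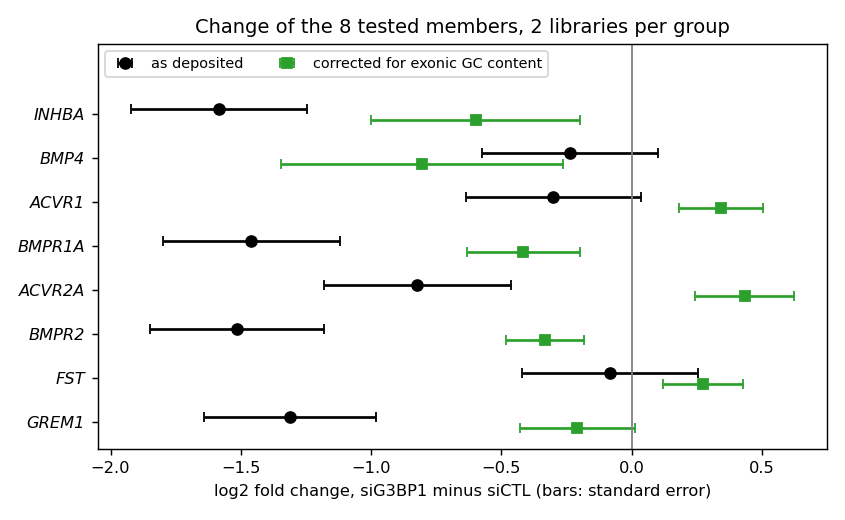
Log2 fold change of each tested member (siG3BP1 minus siCTL) with its standard error from limma, 2 libraries per group. Black circles are the deposited values and green squares the values corrected for exonic GC content. INHBA moved from -1.58 to -0.60 and ACVR2A from -0.82 to 0.43.

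Per length, the members spanned a wide range of levels. GREM1 had the highest mean over the 4 libraries, 465 normalized reads per kb of exon, followed by FST with 383.5 and BMP4 with 224. BMPR2 had 144.5, ACVR1 111, INHBA 79.7, BMPR1A 31.2, ACVR2A 16.8 and INHBB 0.446 normalized reads per kb. Some neighbours in this order were not separated by their spread over libraries. The library ranges of GREM1 (189 to 745 normalized reads per kb) and FST (307 to 444) overlapped, as did those of FST and BMP4 (118 to 309), BMP4 and BMPR2 (58.4 to 227), BMPR2 and ACVR1 (80.1 to 132), ACVR1 and INHBA (30.0 to 173), INHBA and BMPR1A (11.4 to 47.4), and BMPR1A and ACVR2A (10.1 to 23.1). Only INHBB lay below all libraries of its neighbour. In both siG3BP1 libraries FST was above GREM1 per length, at 307 against 189 normalized reads per kb in A and 444 against 361 in B, whereas in the siCTL libraries GREM1 was higher, at 564 against 374 in A and 745 against 409 in B. BMPR2 and ACVR1 changed order as well. BMPR2 was above ACVR1 in siCTL (198 against 112 in A, 227 against 132 in B) and below it in siG3BP1 (58.4 against 80.1 in A, 94.3 against 121 in B). The lengths are of all annotated exons together, 14784 bases for GREM1 and 2752 for FST, whichever transcripts the cells make. Without division by length GREM1 was above FST in all 4 libraries, so their change of order depends on these lengths.

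The letter of the library moved with the members as well. All 8 tested members were lower in siG3BP1 A than in siG3BP1 B, where 53.8% of all tested genes were, and 7 of 8 were lower in siCTL A than in siCTL B, where 50.6% of all tested genes were. BMPR1A was the exception in siCTL. The difference A minus B in siG3BP1 ran from -1.38 for BMP4 to -0.51 for ACVR2A on the log2 scale, and the median absolute difference over all tested genes was 0.51. Per the study's methods, experiments were repeated and each treatment had its own control, but whether A and B mark such repeats is not stated there.

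Which members passed the test depended on which libraries were used. Each fit with a library left out assumes that a lone library varies like the other group. Without siCTL A, 0 members passed limma, and INHBA came nearest (log2 fold change -2.23, adjusted p = 0.0619), and without siCTL B, 0 passed, with INHBA at -0.94 (adjusted p = 0.310). At an unadjusted p under 0.05 these fits had 4 and 2 of the 8 members, and 2740 and 2819 of all genes. After adjustment they called 127 and 17 genes, against 7576 with all libraries. Without siG3BP1 A, 3 passed from limma: BMPR2 (adjusted p = 0.0187), BMPR1A (adjusted p = 0.0212) and GREM1 (adjusted p = 0.0324). INHBA was then at -1.29 (limma adjusted p = 0.1004). Without siG3BP1 B, 6 passed, the additional one being ACVR1 (log2 fold change -0.60, limma adjusted p = 0.0224). The calls over all genes moved in the same directions, with 5726 without siG3BP1 A and 9625 without siG3BP1 B. INHBA, BMPR1A, BMPR2, GREM1 and ACVR2A had a negative log2 fold change in each of these 4 fits on the deposited values. BMP4 changed sign, from -0.93 without siG3BP1 B to 0.46 without siG3BP1 A.

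The members' changes were set beside those of genes of like GC content. Over 13350 genes the log2 fold change had a Spearman rho of 0.80 with exonic GC content, and over the 8 tested members 0.57; both are descriptions, since genes share their libraries. The lowest decile of genes by GC content had a median log2 fold change of -1.35 and the highest decile 0.99. INHBA, with 41.4% GC, was at -1.58 where its decile had a median of -1.07. BMPR1A (40.8%), BMPR2 (38.9%) and GREM1 (40.2%) were at -1.46, -1.52 and -1.31 in a decile with a median of -1.23. BMP4 lay furthest below its decile, at -0.24 against 0.62. The members above the median of their deciles were ACVR2A (-0.82 against -1.35), ACVR1 (-0.30 against -0.75) and FST (-0.08 against -0.22). The part of GC content in the changes of the members and the part of G3BP1 cannot be told apart by these 4 libraries.

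**Figure D3:**
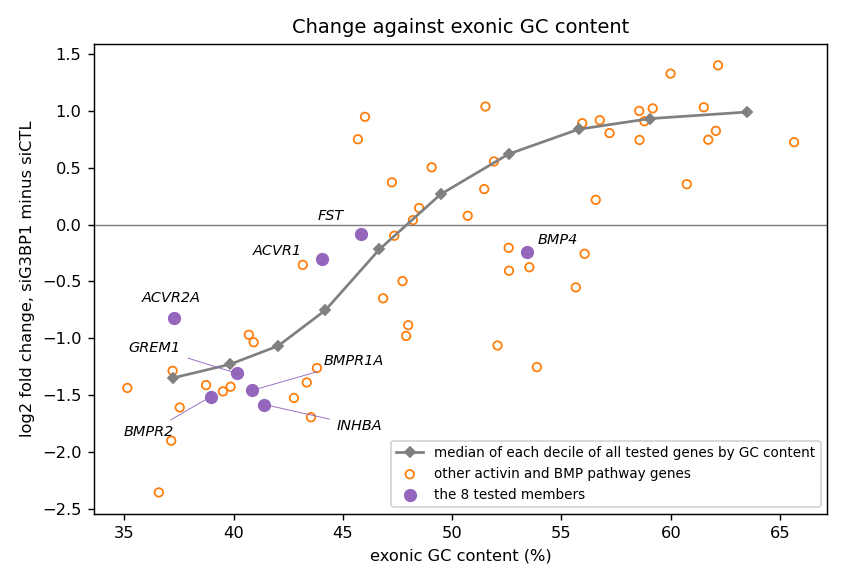
Log2 fold change (siG3BP1 minus siCTL) against exonic GC content in percent for the 8 tested members (purple) and the other tested pathway genes (open circles). The grey line joins the median of each decile of all tested genes, from -1.35 to 0.99, and BMP4 lies well below it while ACVR2A lies above it.

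Ratios within a library compare a ligand with its antagonist, or a type II with a type I receptor, without any effect of depth. With 2 libraries against 2, the exact permutation test (two-sided) cannot give a p below 0.333, and for the 4 pairs compared the Benjamini-Hochberg values were 0.444 where the exact p was 0.333 and 0.667 where it was 0.667. The log2 ratio of INHBA to FST was -0.82 (A) and 0.35 (B) with siCTL, and -1.76 (A) and -1.71 (B) with siG3BP1. The activin subunit was thus lower relative to follistatin in both siG3BP1 libraries, with a difference of -1.50 between the group means (exact permutation p = 0.333). After GC correction the ratios were -1.12 and 0.02 in siCTL and -1.36 and -1.48 in siG3BP1, a difference of -0.87, and the groups still did not overlap. The size rests on siCTL B, without which the difference was -0.92 on the deposited values and -0.30 after GC correction.

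The log2 ratio of BMP4 to GREM1 moved the other way. It was -4.00 (A) and -3.56 (B) with siCTL and -2.93 (A) and -2.48 (B) with siG3BP1, higher in siG3BP1 by 1.07 (exact permutation p = 0.333). GREM1 fell while BMP4 did not pass the test. This direction was not kept after GC correction, where the difference was -0.60 and the groups overlapped. BMP4 and GREM1 differed in exonic GC content, 53.4% against 40.2%.

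Between the receptors ACVR2A and ACVR1 the log2 ratio was -3.11 (A) and -3.12 (B) with siCTL, and -3.59 (A) and -3.68 (B) with siG3BP1. The libraries of a group agreed closely, and the ratio was lower in siG3BP1 by 0.52 (exact permutation p = 0.333). After GC correction the difference was 0.09 and the groups overlapped. The log2 ratio of BMPR2 to BMPR1A was 2.37 and 2.72 in siCTL and 2.67 and 2.32 in siG3BP1, a difference of -0.06 (exact permutation p = 0.667). Both BMP receptors fell, and their ratio overlapped between the groups before and after GC correction.

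**Figure D4:**
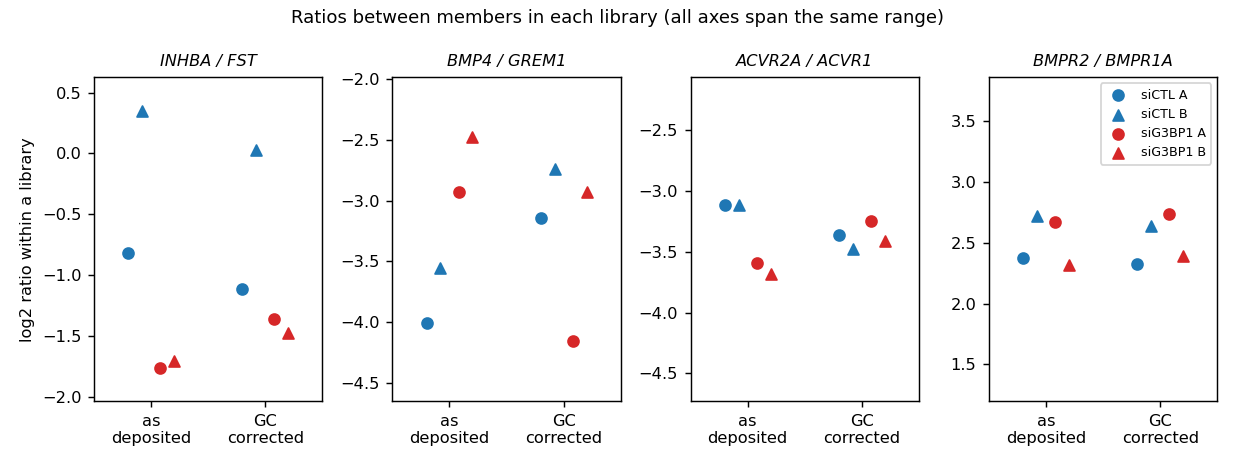
Log2 ratio of 4 pairs of members within each library, on the deposited values and after GC correction, with all axes spanning the same range. The INHBA to FST ratio keeps its groups apart in both, with siCTL B the highest (siG3BP1 at -1.76 and -1.71 as deposited).

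The other genes of the pathway were taken from lists by role. Besides the members these lists held 86 genes, of which 52 were tested: 18 fell, 12 rose and 22 did not pass, with a median log2 fold change of -0.15 against 0.04 over all tested genes. After GC correction 0 of them passed in each direction, and 20 had an unadjusted p under 0.05 from limma, as did 28.5% of all genes. The members' share of lower calls, 5 of 8, and that of these genes, 18 of 52, are descriptions beside the 30.5% of all genes. The 30.5% is not matched to either list for exonic GC content.

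Among the other ligands 7 of 25 were tested, 1 fell and 1 rose. BMP2, a close relative of BMP4 with the same receptors, was at 2245 and 1658 normalized reads in siCTL and 807 and 1054 in siG3BP1. It fell by 1.06 (SE 0.34, limma adjusted p = 0.0052). After GC correction its log2 fold change was -1.52 (limma adjusted p = 0.0663). GDF15, a distant family member that responds to cell stress, rose by 1.33 on the log2 scale (SE 0.34, limma adjusted p = 6.16e-04), with 969.9 and 846 normalized reads in siCTL and 3571 and 1453 in siG3BP1. Without siG3BP1 A its log2 fold change was 0.68, and after GC correction 0.46. The other 5 tested ligands did not pass.

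Of the other type I receptors 3 were tested. BMPR1B, the paralog of BMPR1A, was at 86.2 and 63.1 normalized reads in siCTL and 24.2 and 28.7 in siG3BP1. It fell by 1.47 (SE 0.41, limma adjusted p = 0.0019), near the fall of BMPR1A. After GC correction BMPR1B was at -0.32 (limma adjusted p = 0.483) and BMPR1A at -0.42. ACVRL1, the receptor known as ALK1 for BMP9 and BMP10 in vessels, rose with a log2 fold change of 0.81 (SE 0.34, limma adjusted p = 0.0323), a call lost under TMM scaling (limma adjusted p = 0.0539) and edgeR (adjusted p = 0.0570), and was at 0.016 after GC correction. ACVR2B, the activin type II receptor related to ACVR2A, was the only other type II receptor tested and fell by 0.98 (SE 0.41, limma adjusted p = 0.0325), so all 3 tested type II receptors of the list passed as lower. Like that of ACVR2A, the call of ACVR2B was lost with no filter (limma adjusted p = 0.0839), quantile normalization (0.108), median-centring (0.0959), length correction (0.302) and DESeq2 (0.0942). ACVR2B was at -0.95 after GC correction (limma adjusted p = 0.0921), where ACVR2A was at 0.43. Of 6 tested co-receptors and decoy receptors 0 fell and 1 rose, ENG, which encodes the co-receptor endoglin (log2 fold change 1.03, limma adjusted p = 0.0059). ENG was at 0.14 after GC correction.

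Besides FST and GREM1, 9 antagonists and binding proteins were tested, of which 2 fell and 3 rose. FSTL1, a secreted protein related to follistatin, was at 13842 and 16359.5 normalized reads in siCTL and 3701 and 8909 in siG3BP1, and fell by 1.39 (SE 0.33, limma adjusted p = 2.86e-04). With GC correction FSTL1 was at -0.64 (limma adjusted p = 0.200). TWSG1, a BMP-binding protein that works with chordin, fell by 1.29 (limma adjusted p = 8.82e-04) and was at -0.03 after GC correction. KCP, a secreted protein related to chordin, rose with a log2 fold change of 1.40 (limma adjusted p = 0.0085), from 14.4 and 15.9 normalized reads to 55.0 and 30.3. NOG, which encodes the BMP antagonist noggin, rose with a log2 fold change of 1.02 (limma adjusted p = 0.0156), from 51.1 and 50.3 to 89.1 and 120.4. After GC correction KCP was at 0.50 and NOG at 0.17, and NOG also missed the threshold after length correction (limma adjusted p = 0.111).

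The SMADs and their cofactors had the most lower calls of the role lists, and also the most tested genes. Of 17 tested genes 11 fell and 2 rose, where 30.5% and 25.9% of all genes did. Their median log2 fold change was -1.26, and -0.36 after GC correction. Their mean exonic GC content was 44.8% against 49.0% over all tested genes. SKIL, a corepressor of SMADs, was at 258 and 435 normalized reads in siCTL and 45.1 and 93.4 in siG3BP1 and fell by 2.36 (SE 0.35, limma adjusted p = 7.61e-09). ZFYVE16, an endosomal protein that binds SMADs, fell by 1.90 (SE 0.35, limma adjusted p = 4.59e-06). With GC correction SKIL was at -1.07 (limma adjusted p = 0.0927) and ZFYVE16 at -0.64 (limma adjusted p = 0.110). FKBP1A, which binds type I receptors and holds them inactive, rose with a log2 fold change of 0.95 (limma adjusted p = 0.0106), and SKI, the relative of SKIL, with one of 0.75 (limma adjusted p = 0.0446) that was -0.15 after GC correction. FKBP1A was at 1.28 after GC correction (limma adjusted p = 0.0747). The SMADs themselves were chosen for mention after their values were seen. The BMP SMADs SMAD1, SMAD5 and SMAD9 fell, with log2 fold changes of -1.53, -1.43 and -1.70. The shared SMAD4 (-1.61) and the activin SMAD2 (-0.97) fell as well. After GC correction SMAD1, SMAD5 and SMAD9 were at -0.69, -0.30 and -0.97, SMAD4 at -0.36 and SMAD2 at 0.09. SMAD3 and the inhibitory SMAD6 and SMAD7 did not pass.

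Genes known as targets of BMP or activin did not share a direction. Of 11 tested, 2 fell and 4 rose, where 30.5% and 25.9% of all genes did. The median was 0.22 and, after GC correction, 0.02. Their mean exonic GC content was 54.2%. PMEPA1, a target that dampens SMAD signaling, was at 282 and 487 normalized reads in siCTL and 108 and 223 in siG3BP1 and fell by 1.25 (SE 0.34, limma adjusted p = 0.0014). RUNX2, a transcription factor of bone formation, fell by 0.89 (limma adjusted p = 0.0200). ID1, a classic BMP target, was at 226 and 322 normalized reads in siCTL and 745 and 392 in siG3BP1. It rose with a log2 fold change of 1.002 (SE 0.34, limma adjusted p = 0.0087). After GC correction PMEPA1 was at -1.86, RUNX2 at -0.86 and ID1 at 0.17, and none of them passed. A list of TGF-beta ligands, receptors and binding proteins was kept for comparison, with a mean exonic GC content of 51.6%. Of its 10 tested genes 2 fell and 0 rose, where 30.5% and 25.9% of all genes did. Its median was 0.06 and, after GC correction, -0.37, where the members had -0.27. TGFBR1, the type I receptor of TGF-beta, fell by 2.34 (limma adjusted p = 3.23e-09). The ligand TGFB2 fell by 1.29 (limma adjusted p = 9.85e-04). With GC correction TGFBR1 was at -1.17 (limma adjusted p = 0.0889) and TGFB2 at -0.41 (limma adjusted p = 0.200).

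Without siCTL A, 1 of these 52 genes was called lower and 0 higher, and without siCTL B 0 and 0. Without siG3BP1 A the counts were 16 and 9, where 3204 and 2522 of all genes were called, and without siG3BP1 B they were 20 and 15, where 5050 and 4575 were. With edgeR on the recovered reads, 18 of them were lower and 9 higher.

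**Figure D5:**
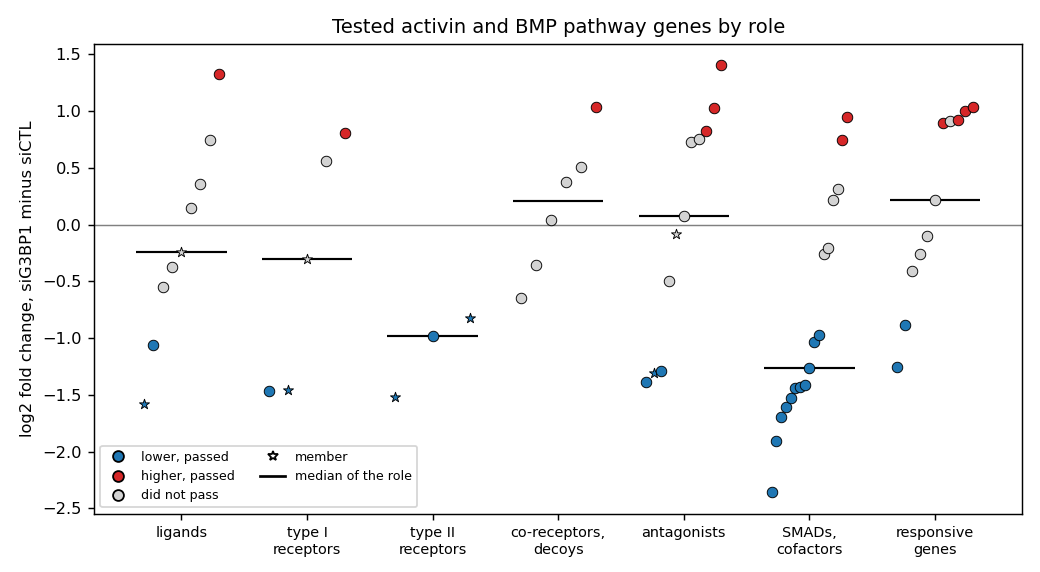
Log2 fold change (siG3BP1 minus siCTL) of every tested pathway gene by role, with the members as stars. Blue genes passed the test as lower, red as higher and grey did not pass, and the black bar is the median of the role. The SMADs and cofactors have a median of -1.26.

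The gene most like each tested member over the 4 libraries was found by the Euclidean distance between centred log2 values, with no filter on function. For BMPR1A it was SLC40A1, which encodes the iron exporter ferroportin, at a distance of 0.0184 and with 119 and 107 normalized reads in siCTL (A, B) and 28.6 and 59.0 in siG3BP1 (A, B). For ACVR1 it was CTGF, a matrix-associated growth factor, at 0.0439, and for BMPR2 it was EPM2AIP1 at 0.0426. For ACVR2A it was ZNF462 at 0.0469, for GREM1 it was LRCH2 at 0.0562, and for FST it was NBPF15 at 0.0284, a member of a multigene family whose counts are uncertain. The patterns of INHBA and BMP4 had few close matches. The nearest to INHBA was TMEM133 at 0.166 and the nearest to BMP4 was SERPINE2, a secreted protease inhibitor, at 0.134. Within a distance of 0.5 lay 44 genes for INHBA and 65 for BMP4, against 1347 to 2190 for each of the other 6. With 4 libraries such likeness is a description of the libraries.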

How the data were processed

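Total RNA of 4 libraries (2 siCTL, 2 siG3BP1) was compared. The study's methods state stranded libraries, trimming with Trimmomatic 0.35, alignment with STAR to GRCh38 with Gencode, gene counts from STAR, RSEM for TPM or FPKM, and DESeq2 1.22.1 to normalize the gene counts. Without giving a role, the submitters' notes list TopHat2 2.0.10, mm10 and GRCm38 too. The deposited signal is, for each library and gene, a read count over a size factor, with factors of 1.25, 1.63, 0.910 and 1.22 for siCTL A, siCTL B, siG3BP1 A and siG3BP1 B. Multiplied back, 100% of values were whole reads (tolerance 1e-06). The table also holds the authors' means, log2 means, fold changes and p-values, which were not used.

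Genes with a mean of at least 10 (13422 of 58219) were tested with limma 3.58.1 in R 4.3.3 (two-sided, with a trended prior) on log2(value + 0.5), and adjusted over all of them by Benjamini-Hochberg (threshold 0.05). Fold changes on this scale understate changes of low genes. The prior degrees of freedom were not finite, so a standard error follows the trend over genes at its level rather than the gene's own spread; they were 4.17 after GC correction. The correction subtracted a loess trend (span 0.3) on exonic GC content from the deviations of a library from the gene means, taken from Gencode release 44 of GRCh38 for 99.5% of the tested genes. Intervals are at 95%. The floor of 3 reads covers counting error only.

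The members, role lists and markers were chosen with earlier results of these data known. Named are all members, G3BP1, from each role list besides members the 2 genes with the smallest p in each direction among those past the threshold, and for each tested member the nearest protein-coding gene. Some genes that the rule or the marker lists name are not reported here. Alternatives were other pseudocounts, filters and scalings, length and GC correction, the replicate block, a fixed prior, each library left out, and, on the recovered reads, DESeq2 1.42.0 (6699 genes called) and edgeR 4.0.16 (7443, against 7576 with limma). The tests were checked on simulated counts.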

Additional observations from a re-analysis of the deposited data

How the results depend on the processing

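Limits: there are 2 libraries per group, and the fit of the deposited values takes its spread from the trend over genes. The alternatives that change a call were set with the others, except the GC correction with a library left out and the GC-corrected ratios, with all libraries or with one left out, which were chosen after seeing the data.

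The same 5 lower members were found with TMM scaling, edgeR, both other pseudocounts, a mean of at least 50 and protein-coding genes only. In these fits 30.45% to 33.0% of all genes were called lower. ACVR2A was the one lost, leaving 4, with no filter, quantile normalization, median-centring, DESeq2 or the replicate block. There 14.5% to 27.3% of all genes were called lower. Members called higher numbered 0 throughout. GC correction left 0 lower members and, in the wider list, 0 lower and 0 higher genes, as did prior degrees of freedom held at 4 (0, 0 and 0). In simulated data, where few genes were changed, the fixed prior recovered no changed gene. In these data it called 0 genes, while 5 of 8 members and 51.6% of all genes had an unadjusted p under 0.05 (limma). The GC-corrected fit had prior degrees of freedom of 4.17 and called 1 gene. Its unadjusted p was under 0.05 for 0 members and 28.5% of all genes. The 0 adjusted calls of the members in both fits cannot decide whether a change is stable. Length correction left 3 lower members, with and without the replicate block, where 22.8% and 23.6% of all genes were called lower. Besides ACVR2A, GREM1 was lost (limma adjusted p = 0.0617, and 0.119 with the block). The median of all genes moved from 0.04 to 0.29 under median-centring and to 0.10 under quantile normalization, the latter with 3540 lower and 3727 higher calls.

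The letters A and B give 2 pairs, whose differences A minus B had a correlation of 0.30 over genes (0.48 after GC correction), and no source used here says that a letter marks a shared repeat, although treatments in the study were in general paired with controls. With the replicate block 7 of the wider list were higher instead of 12, where 17.7% and 25.9% of all genes were. That fit called 6044 genes in both directions. With GC correction and the replicate block together 2 members were lower, INHBA (-0.60, limma adjusted p = 0.0050) and BMP4 (-0.81, limma adjusted p = 7.56e-05). In that fit 14.5% of all genes were lower and 14.9% higher, 3929 of 13350 genes in both directions. Of the wider list 5 were higher.

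Signs turned after GC correction, with and without the replicate block, for ACVR1 (0.34), ACVR2A (0.43), FST (0.27), SKI (-0.15) and SMAD2 (0.086). They turned after length correction, with and without the block, for ACVR1 (0.13), and after median-centring for BMP4 (0.020) and FST (0.17). GC correction turned the differences of the log2 ratios of BMP4 to GREM1 (-0.60), ACVR2A to ACVR1 (0.090) and BMPR2 to BMPR1A (0.084). The cause was not tested.

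With each library left out, before or after GC correction, the lower members numbered 0 to 6, and the wider list had 0 to 20 lower and 0 to 15 higher genes. The log2 fold change ranged from -2.23 to 0.060 for INHBA, from -0.60 to 0.48 for ACVR1, from -1.08 to 0.52 for ACVR2A, from -1.63 to 0.46 for BMP4 and from -0.35 to 0.37 for FST. It ranged from -0.19 to 0.98 for ACVRL1, from -1.70 to 0.12 for TWSG1, from -0.29 to 1.24 for NOG, from -0.21 to 0.95 for SKI and from -0.053 to 1.46 for ID1. It ranged from -1.21 to 0.15 for SMAD2. The difference of the log2 ratio ranged from -2.08 to -0.30 for INHBA to FST, from -1.21 to 1.30 for BMP4 to GREM1, from -0.56 to 0.17 for ACVR2A to ACVR1 and from -0.23 to 0.26 for BMPR2 to BMPR1A.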
